A study of Rattus norvegicus with 6 samples.

Results

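In 1776 chromatin regions of INS-1 cells, accessibility was at least 2-fold lower after 1 h with forskolin (FSK) in both WT and Med14 S983A cells. In Med14 S983A cells, the Mediator subunit Med14 carries alanine in place of a serine that protein kinase A phosphorylates. The regions were chosen by that fall in ATAC-seq data. In this assay the Tn5 transposase cuts open DNA, and a peak is a stretch with many cuts. Of 220490 merged peaks, 86465 were not mitochondrial, were on the peak lists of all 6 libraries and averaged at least 1 FPKM (fragments per kilobase of peak, scaled to the library's reads in peaks). The 1776 were the members of this shared set whose log2(FPKM + 0.5) was lower with FSK than in the untreated control (CON) by 1 or more in each genotype, which is 2.05% of it. All members are accounted for in the counts given here, and none was dropped by a further filter.

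INS-1 cells come from a rat insulinoma and serve as a model of beta cells. WT and Med14 S983A cells were each profiled in CON, after 1 h with 10 nM Exendin-4 (Ex-4, a stable GLP-1 receptor agonist) and after 1 h with 10 µM FSK, which activates adenylate cyclase directly, and all cells were moved to serum-free medium beforehand. Since the table holds 1 library per condition, no spread between replicates was measured, no test was run, and treatment and library cannot be told apart. The study made 2 independent mutant lines without naming the one profiled here, so genotype and line cannot be told apart either.

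Cyclic AMP, raised by FSK and by signalling from the GLP-1 receptor, activates protein kinase A, which phosphorylates CREB and, at the serine changed here, Med14. Accessible DNA marks promoters and enhancers held open by transcription factors and remodelling complexes, and Mediator joins such factors to RNA polymerase II. A stimulus can close such sites as well as open them.

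Depth was high. The libraries held 134300000 to 251200000 reads in peaks, the most in WT FSK, and the median member was covered by 204 reads in Med14 S983A FSK and by 446 to 814 in the other 5 libraries. The member with the fewest reads still had 33 of them in Med14 S983A FSK. With each of these reads taken as independent, counting error was small beside the falls (7.0% of the level at 204 reads). Whether both ends of a DNA fragment were counted apart is not stated. If they were, this error and the counting intervals given below are too small. The variation between libraries is unknown. In these bulk libraries, a site closed in some of the cells and a site partly closed in all of them cannot be told apart.

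In WT, the members ranged from 1.02 to 84.0 FPKM in CON with a median of 10.1, from 0.632 to 68.2 with Ex-4 with a median of 8.10, and from 0.199 to 40.6 with FSK with a median of 3.65. In Med14 S983A, they ranged from 1.31 to 62.8 FPKM in CON with a median of 6.81, from 0.421 to 55.2 with Ex-4 with a median of 5.50, and from 0.273 to 25.9 with FSK with a median of 2.37. The FSK library was the lowest of its genotype and the Ex-4 library lay between FSK and CON. Over all shared peaks the 6 medians stayed between 7.43 and 8.79 FPKM, so before stimulation the members stood near an ordinary shared peak, somewhat above it in WT and below it in the mutant.

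**Figure D1:**
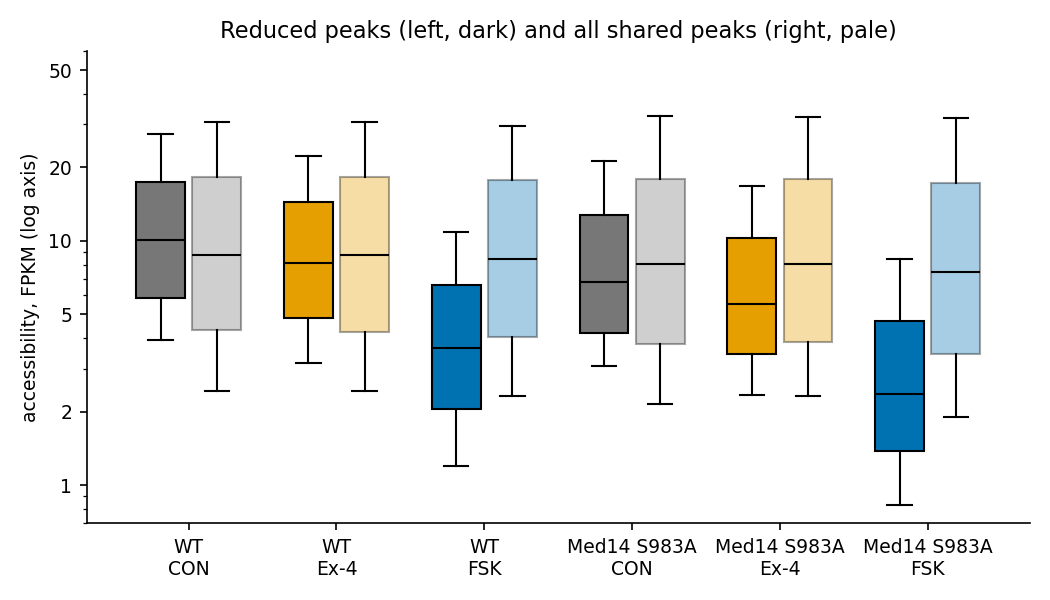
Accessibility in FPKM (log axis) in each of the 6 libraries for the 1776 reduced peaks (dark boxes) and for all 86465 shared peaks (pale boxes). Boxes run from the lower to the upper quartile with the median as a line, and whiskers from the 10th to the 90th percentile of peaks. The dark boxes drop in both FSK libraries, which the rule fixed, and sit between CON and FSK with Ex-4. The medians of the pale boxes stay between 7.43 and 8.79 FPKM and are lowest with FSK in each genotype.

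The fall with FSK left a median of 37.6% of the CON level in WT (from 10.1% to 49.2%) and 36.1% in Med14 S983A (from 8.6% to 49.2%). These values come from the contrasts that chose the members and are given as a description. Most falls were moderate: 1307 members fell by less than 3-fold in both genotypes on the log2(FPKM + 0.5) scale, 47 fell 4-fold or more in WT, 57 did so in the mutant, and 12 did so in both. The fall was larger in WT in 857 members and larger in Med14 S983A in 919. In 1169 members (65.8%) the falls of the 2 genotypes lay within 0.25 of each other on the log2 scale, and 9 members had falls more than 1 apart.

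The limit of the rule cuts through a continuous range. Just inside lay chr18:81731778-81732813 with FSK changes of -1.0001 in WT and -1.1955 in Med14 S983A, chr15:70051481-70051826 with -1.0215 and -1.0002, and chr13:66179854-66180142 with -1.2076 and -1.0002. Just outside lay chr14:45752816-45753106 with -0.9999 and -1.2013, chr5:71837095-71837646 with -1.0225 and -0.9998, and chr9:69409879-69410628 with -1.0576 and -0.9997. Positions are on the rat build rn6 as deposited. The gene, exon or promoter at each position and its sequence were not analysed here, because no rn6 annotation or genome was at hand, and for the same reason the identity of the cells was not checked against marker genes.

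**Figure D2:**
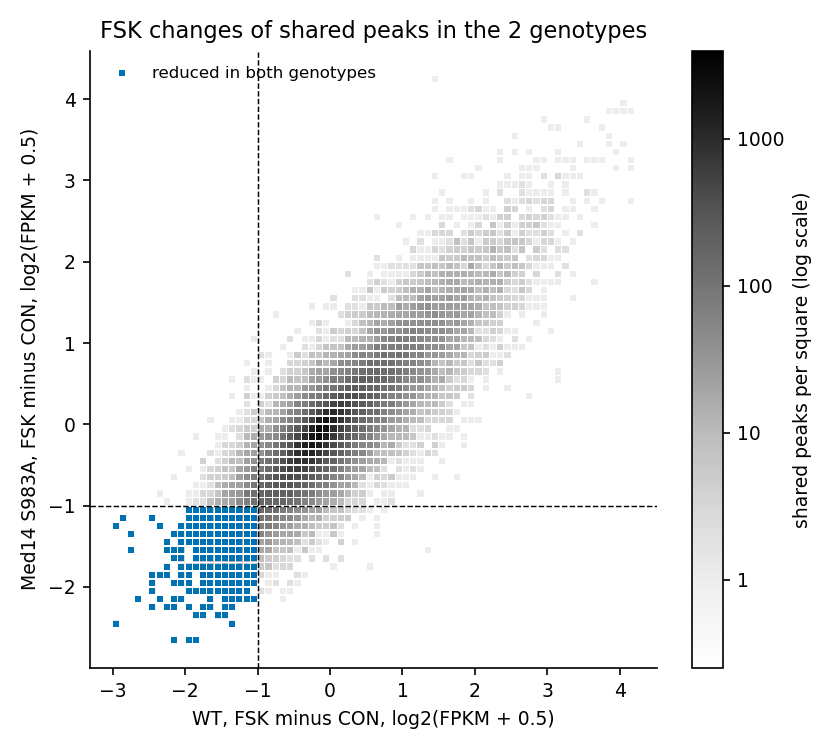
Change with FSK in WT (x axis) against the change in Med14 S983A (y axis), both as log2(FPKM + 0.5) differences, for the 86465 shared peaks in squares of 0.1 by 0.1. Grey depth gives the number of peaks per square on a log scale, dashed lines mark the limit of -1, and blue squares hold the 1776 peaks below it in both genotypes.

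The rule used each genotype's own FSK and CON libraries, so the other genotype gives a reading that the choice in 1 genotype did not use. Among all shared peaks, 3158 (3.65%) fell at least 2-fold in WT and 3703 (4.28%) did so in Med14 S983A. Of the 3158 peaks chosen from the WT libraries, 56.2% also fell at least 2-fold in the mutant, where the share over all shared peaks was 4.28%. Of the 3703 peaks chosen from the mutant libraries, 48.0% also fell at least 2-fold in WT, against 3.65% over all shared peaks. The peaks counted in both shares are the 1776 members themselves, so the shares add no peaks to that count.

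The 3158 peaks chosen in WT, members included, had a median FSK change of -1.05 in Med14 S983A, and 99.0% of them lay below CON there. The 3703 peaks chosen in the mutant had a median change of -0.98 in WT, with 98.2% below CON. The 1382 peaks that met the limit in WT and missed it in the mutant had a median mutant change of -0.76, with 97.6% below CON, and the 1927 peaks that met it in the mutant and missed it in WT had a median WT change of -0.76, with 96.5% below CON. That these changes lie above -1 follows from the split. Over all shared peaks the medians were -0.13 in WT (64.8% below CON) and -0.12 in Med14 S983A (63.7% below CON). The part of these lower medians in the overlap of the genotypes was not tested. A rise of 2-fold or more in the other genotype was seen for 1 peak of each set. The share of reads in shared peaks that fell in the members went from 1.62% in CON to 0.65% with FSK in WT, and from 1.18% to 0.45% in the mutant. The same rule in the upward direction gave 3140 peaks (3.63%), so among peaks called in all 6 libraries the reduced set was the smaller of the 2. Peaks missing from a peak list were not compared in this way.

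The 10 members with the lowest mean FSK change are described next, by rank. Levels of single regions are given in FPKM and in the order CON, Ex-4, FSK. At chr4:146786442-146787093, 651 bp long, they were 44.3, 23.3 and 5.31 in WT cells and 25.0, 9.26 and 4.16 in mutant cells. The exact Poisson 95% intervals, which cover counting error only, ran from 43.0 to 45.7 in WT CON and from 4.96 to 5.67 in WT FSK, and from 23.9 to 26.0 and 3.78 to 4.56 in the mutant. The FSK change was -2.95 in WT and -2.45 in Med14 S983A, and the Ex-4 change was -0.91 and -1.38. This region had the lowest mean FSK change of all members and was also among the 3 members with the lowest mean Ex-4 change.

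The second, chrX:109930863-109931343, had 8.87, 7.19 and 1.01 in WT and 21.1, 16.2 and 4.24 in Med14 S983A. It was the more accessible in mutant cells under every treatment, and FSK left 11.4% of CON in WT and 20.1% in the mutant. At the third, chr16:25704745-25705415, the levels were 10.2, 7.23 and 1.82 in WT and 5.40, 2.81 and 0.467 in the mutant, whose FSK level rested on 51 reads (interval 0.348 to 0.614). The 8.6% of CON that remained there in the mutant was the lowest share of any member in that genotype.

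The fourth, chr14:31409198-31409598, had 16.2, 11.8 and 2.45 in WT and 12.2, 8.75 and 2.25 in the mutant. At chr17:89275033-89275661 the levels were 7.77, 5.09 and 1.60 in WT and 8.58, 4.14 and 0.909 in the mutant. The next, chrX:68971386-68971863, had 19.0, 16.8 and 3.46 in WT and 25.5, 18.2 and 4.86 in the mutant. The CON level of the mutant differed from that of WT by -0.39, 0.14 and 0.42 on the log2 scale at these 3 regions, and the order CON, Ex-4, FSK held in each genotype.

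The seventh was less accessible in the mutant. At chr10:47987603-47988291 WT cells had 30.0, 13.3 and 5.32, while mutant cells had 8.95, 3.24 and 1.60. The share of CON left by FSK was 17.8% in WT and 17.9% in Med14 S983A, although the CON levels differed by -1.69 on the log2 scale. At chr4:135145232-135145710 the levels were 22.8, 19.2 and 5.83 in WT and 8.43, 5.80 and 0.924 in the mutant, and another member lay 1228 bp away. In both regions the mutant was the lower genotype with every treatment, as it was at 4 others of the 10.

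The last of the 10 were chrX:85488508-85488970, with 9.20, 6.23 and 1.30 in WT and 7.28, 5.83 and 1.45 in the mutant, and chr11:11726614-11727094, with 38.5, 29.6 and 7.95 in WT and 25.0, 16.3 and 4.97 in the mutant. In all 10 regions, Ex-4 left between 44.4% and 88.6% of CON in WT and between 36.2% and 80.0% in the mutant, always above the FSK level of the same genotype. The nearest other shared peak lay from 802 to 98639 bp away.

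**Figure D3:**
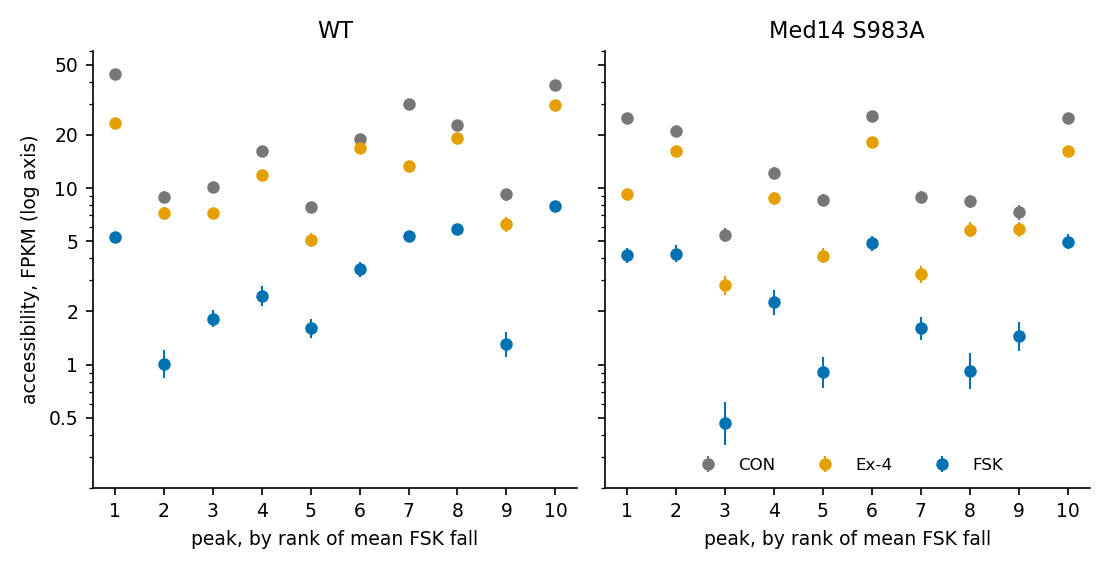
Accessibility in FPKM (log axis) of the 10 members with the lowest mean FSK change, in rank order from left to right, in WT and in Med14 S983A. Points are single libraries (grey CON, orange Ex-4, blue FSK) and bars are exact Poisson 95% intervals, which cover counting error only. Blue lies lowest and orange between blue and grey in all 10 regions of both genotypes.

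The 10 members that were most accessible before stimulation kept 27.8% to 49.1% of CON with FSK in WT and 23.6% to 43.3% in the mutant. They had 41.4 to 84.0 FPKM in WT CON and 14.4 to 40.6 with FSK, and 21.9 to 62.8 in mutant CON and 8.74 to 24.2 with FSK. The highest, chr1:42565814-42566464, had 63.7, 53.8 and 28.8 in WT and 54.9, 45.0 and 23.3 in the mutant. At chr6:123218129-123218789 the levels were 56.0, 39.0 and 15.6 in WT and 56.3, 38.2 and 13.3 in the mutant, the largest mean fall among these 10. The 2 genotypes were thus almost superimposable at that region under each treatment. At chr12:49712240-49713044 they were not: WT had 84.0, 59.4 and 38.8 and the mutant had 21.9, 14.7 and 8.74, while FSK left 46.1% and 40.0% of CON. A pair of these regions, chr12:2013104-2014008 and chr12:2044585-2045192, lay 30577 bp apart and kept 43.3% and 31.7% of CON in WT with FSK.

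Ex-4 signals through the GLP-1 receptor to the same second messenger, and its libraries were not part of the fold rule. They share the CON library with the FSK comparison, so the members' Ex-4 changes are set beside their FSK changes as a description. The median Ex-4 change of the members was -0.26 in WT and -0.29 in Med14 S983A on the log2(FPKM + 0.5) scale, where all shared peaks had -0.02 in both genotypes. In WT, 94.3% of members lay below CON with Ex-4, where 55.0% of all shared peaks did. In the mutant it was 94.7%, where 55.2% of all shared peaks did. In 1600 members (90.1%, against 37.8% of all shared peaks) the level was lower with Ex-4 in both genotypes.

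The Ex-4 changes were small in size. Ex-4 left a median of 83.0% of the CON level in WT and 80.5% in the mutant. A fall of 2-fold or more was seen in 9 members in WT (0.507%, against 0.0625% of all shared peaks) and in 14 in the mutant (0.788%, against 0.0497%). The level with Ex-4 lay between FSK and CON in both genotypes in 1598 members, and it was at or below the FSK level in 0 members in WT and in 2 in Med14 S983A. Since the rule chose members for a low FSK level, an Ex-4 level above it largely follows from the choice.

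Crossing the genotypes gives a reading that shares no library with the FSK fall that chose the peaks, although the shared set itself was drawn from all 6 libraries. The 3158 peaks chosen on FSK in WT had a median Ex-4 change of -0.23 in Med14 S983A, and 85.9% lay below CON. The 3703 peaks chosen on FSK in the mutant had a median Ex-4 change of -0.17 in WT, and 82.8% lay below CON. The Ex-4 change was graded with the FSK change of the other genotype. In peaks whose WT FSK change was between -1.5 and -1, the median mutant Ex-4 change was -0.205 (2675 peaks), it was -0.36 between -2 and -1.5 (432 peaks), and it was -0.51 at -2 and below (51 peaks). Read the other way, the median WT Ex-4 change went from -0.16 (3143 peaks) to -0.24 (497 peaks) and -0.28 (63 peaks) over the same steps of the mutant FSK change.

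**Figure D4:**
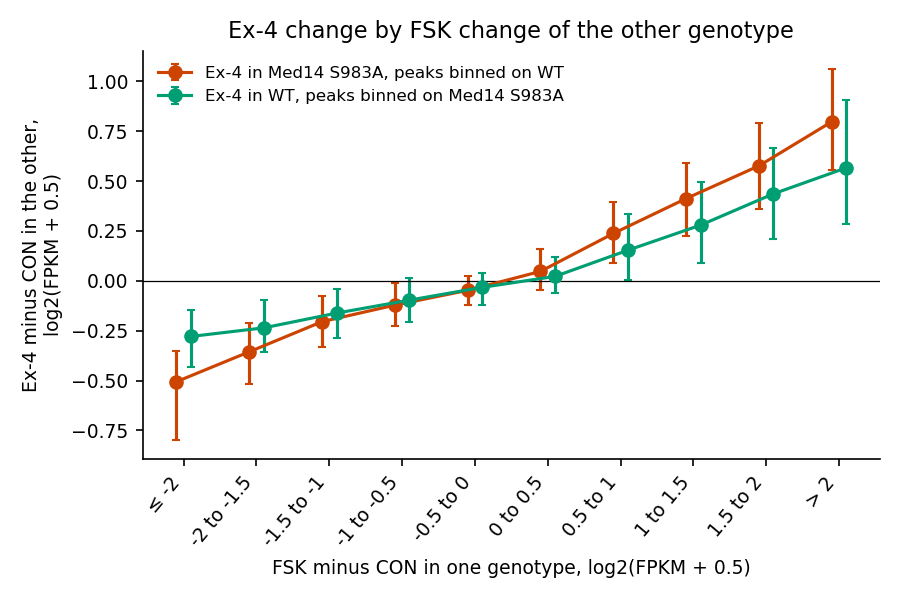
Median Ex-4 change in one genotype (y axis) of shared peaks binned on the FSK change of the other genotype (x axis), both as log2(FPKM + 0.5) differences. Bars run from the lower to the upper quartile of peaks, and bins hold 51 to 41335 peaks. Both lines lie below 0 in every bin of FSK falls and reach -0.51 and -0.28 in the bin of the largest falls.

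The lowest mean Ex-4 changes were at chr17:23859090-23859625, chr10:47987603-47988291 and chr4:146786442-146787093, the last 2 of which are described among the largest FSK falls. At chr17:23859090-23859625 WT cells had 17.6, 6.55 and 2.98 and mutant cells had 3.41, 1.12 and 1.14. The Ex-4 and FSK levels of the mutant were level with each other there, and those of WT were not. Its Ex-4 change was -1.36 in WT and -1.27 in Med14 S983A.

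In 19 members (1.07%, against 27.5% of all shared peaks) the level was above CON with Ex-4 in both genotypes. The 3 with the highest mean Ex-4 change were chr10:105816700-105818480, with 1.12, 1.34 and 0.199 in WT and 1.73, 2.39 and 0.421 in the mutant, chr7:133977263-133977820, with 5.67, 6.91 and 2.40 and then 3.57, 3.97 and 1.21, and chr3:107245082-107245430, with 11.3, 12.4 and 3.79 and then 9.33, 10.7 and 4.06. In all 3, the Ex-4 level lay above CON and the FSK level below it in both genotypes. The counting intervals of CON and Ex-4 overlapped at chr10:105816700-105818480 in WT and at chr7:133977263-133977820 in the mutant. At chr3:107245082-107245430 they overlapped in both genotypes. In 154 members (8.67%, against 34.6% of all shared peaks) the Ex-4 change had opposite signs in the genotypes.

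Most members were less accessible in Med14 S983A than in WT. The fold rule did not use this difference, since it compares libraries of the same genotype, although the Ex-4 libraries counted towards the peak lists and the mean that made a peak part of the shared set. With Ex-4, the median difference of the mutant from WT was -0.37 on the log2(FPKM + 0.5) scale, where all shared peaks had 0.05. It was -0.35 in CON and -0.37 with FSK, where all shared peaks had 0.05 and 0.04. With Ex-4, 75.1% of members were lower in the mutant, against 45.4% of all shared peaks. In 343 members (19.3%, against 9.60% of all shared peaks) the mutant was at least 2-fold lower and in 38 (2.14%, against 4.98%) at least 2-fold higher. The mutant was lower under all 3 treatments in 64.8% of members and in 36.4% of all shared peaks, and higher under all 3 in 18.5% and 43.3%. The 3140 peaks raised in both genotypes had median differences of 0.08 with Ex-4, -0.11 in CON and -0.30 with FSK, so with FSK they too were lower in the mutant. Peaks that met the limit only in WT had a median of -0.345 with Ex-4 (66.8% lower in the mutant). Those that met it only in Med14 S983A had -0.359 (70.7% lower). With Ex-4, the difference was thus not particular to the members.

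The difference was also read within classes of peaks. With the shared peaks split into 10 equal classes of length, the members' median genotype difference with Ex-4 ran from -0.54 to -0.18, where all shared peaks of the same class had medians from -0.07 to 0.15. Over 10 classes of the mean Ex-4 level it ran from -0.54 to -0.21, against -0.03 to 0.13. Over 10 classes of the mean CON level it ran from -0.54 to -0.24 in 9 classes, and in the lowest class (43 members) it was 0.11, where all shared peaks had 0.08. On each of the 21 chromosomes the members' median was below that of all shared peaks, from -0.80 on chromosome 12 (all shared peaks -0.17) to -0.12 on chromosome 9 (all shared peaks 0.28). Among members whose mean FSK change was -2 or less (29 peaks) the median was -0.71, and among those between -1.25 and -1 (777 peaks) it was -0.36.

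The extremes were far apart. At chr3:140718519-140719218 WT cells had 56.6, 40.0 and 19.5 and mutant cells had 2.25, 1.01 and 0.553. At chr2:243748268-243749105 the levels were 30.7, 26.1 and 14.3 in WT and 2.76, 2.11 and 1.01 in the mutant, and at chr5:145068243-145069140 they were 18.1, 13.7 and 8.43 and then 2.22, 1.18 and 0.657. These regions were open in WT and barely so in the mutant, and FSK still left 24.6% to 36.7% of the low mutant level. In the opposite direction, chr4:183446589-183447375 had 3.12, 1.75 and 0.400 in WT and 21.7, 13.9 and 7.99 in the mutant, and chr15:96558650-96559191 had 3.42, 2.21 and 1.08 and then 12.6, 10.8 and 4.22. The third, chr3:172090953-172091749, had 8.70, 8.76 and 2.91 in WT and 46.9, 38.4 and 19.6 in the mutant.

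The members were of ordinary length, with few very short or very wide peaks. Their median was 557 bp (from 131 to 2065 bp), against 584 bp for all shared peaks and 548 bp for the raised set. Members made up 0.77% of the shortest of the 10 length classes, 1.45% to 2.95% of the 8 classes in the middle, and 0.42% of the widest, which began at 1170 bp. The raised set followed the same course, with 1.14% in the shortest class, 5.67% at its highest and 1.15% in the widest. By mean level with Ex-4, members made up 1.27% of the lowest of 10 classes, 3.10% of the class from 3.74 to 4.92 FPKM and 0.42% of the highest, from 30.9 FPKM up. By mean level in CON, which the rule used, they made up 0.50% of the lowest class, 3.12% of the class from 4.94 to 6.49 FPKM and 1.02% of the highest. The widest members were chr4:87073011-87075076 (2065 bp, 2.38, 1.40 and 0.389 in WT and 2.22, 1.59 and 0.324 in the mutant), chr4:120731407-120733264 (1857 bp, 18.4, 10.1 and 5.29 and then 6.05, 3.50 and 2.15) and chr10:105816700-105818480 (1780 bp, given above).

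Members were more frequent where shared peaks are sparse. With 0 to 2 other shared peaks within 50 kb, 3.48% of 19070 peaks were members, and the share fell through 2.59%, 1.65% and 1.28% to 1.06% of 16982 peaks with 10 to 32 such neighbours. The raised set did not follow this course and made up 2.91% of the sparsest and 3.73% of the densest class. A member had a median of 3 other shared peaks within 50 kb, a raised peak 6 and a shared peak of any kind 5, and 9.5% of members had none, against 5.0% of all shared peaks. The FSK change of all shared peaks moved with density too, with medians of -0.205 in WT and -0.249 in Med14 S983A in the sparsest class and -0.089 and -0.026 in the densest. The median CON level rose from 6.20 to 12.8 FPKM over the same classes, and its part in the pattern was not tested.

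At the extremes of density, the chromosomes differed in the same sense. Members made up 0.91% of shared peaks on chromosome 10, 1.07% on chromosome 12, 1.08% on chromosome 20 and 1.42% on chromosome 19, which had the most shared peaks per Mb (39.5 to 50.7). On chromosome X, with the fewest (15.6 per Mb), 3.29% were members, the highest share of any chromosome. Chromosome 18 came next with 2.99% at 31.2 shared peaks per Mb. Chromosome 15, at 20.6 per Mb, had 2.27%, so the share did not follow density throughout. The share of raised peaks ranged from 3.01% to 4.45% over the 21 chromosomes.

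Most members stood alone. At gaps of at most 10 kb they formed 1650 single regions, 60 pairs and 2 groups of 3. Another member lay within 10 kb of 126 members (7.09%), and a member lay within 10 kb of 2.04% of all shared peaks. A raised peak lay within 10 kb of 30 members (1.69%), against 4.73% of all shared peaks. One group of 3 spanned chr4:43030696-43041672, where all 3 shared peaks were members. Its strongest, chr4:43032047-43032550, had 37.0, 26.6 and 11.0 in WT and 32.5, 18.8 and 9.20 in the mutant. The other group of 3 spanned chr14:60115422-60135456 and held 4 shared peaks, and its members had FSK changes from -1.17 to -1.05 in WT and from -1.36 to -1.19 in the mutant. Among the pairs, chr2:233584247-233592659 held the lowest median WT change, with WT levels of 30.2 and 23.5 FPKM in CON and 8.41 and 5.61 with FSK, and mutant levels of 11.0 and 2.84 in CON and 3.87 and 0.790 with FSK.

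Shared peaks near a member that were not members themselves were also lower with FSK. Within 1 kb of a member, 249 such peaks had median FSK changes of -0.34 in WT and -0.35 in Med14 S983A. At 5 to 10 kb the 761 peaks had medians of -0.30 in both genotypes, at 50 to 100 kb the 5120 peaks had -0.17 in both, and beyond 500 kb the 45733 peaks had -0.11 and -0.09. Both genotypes were below CON in 65.1% of the peaks within 1 kb, in 71.9% at 5 to 10 kb and in 51.5% beyond 500 kb, so this share was not highest in the nearest class. The neighbours' medians stayed well short of the limit of -1 at every distance. The part of peak density in these values was not tested.

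**Figure D5:**
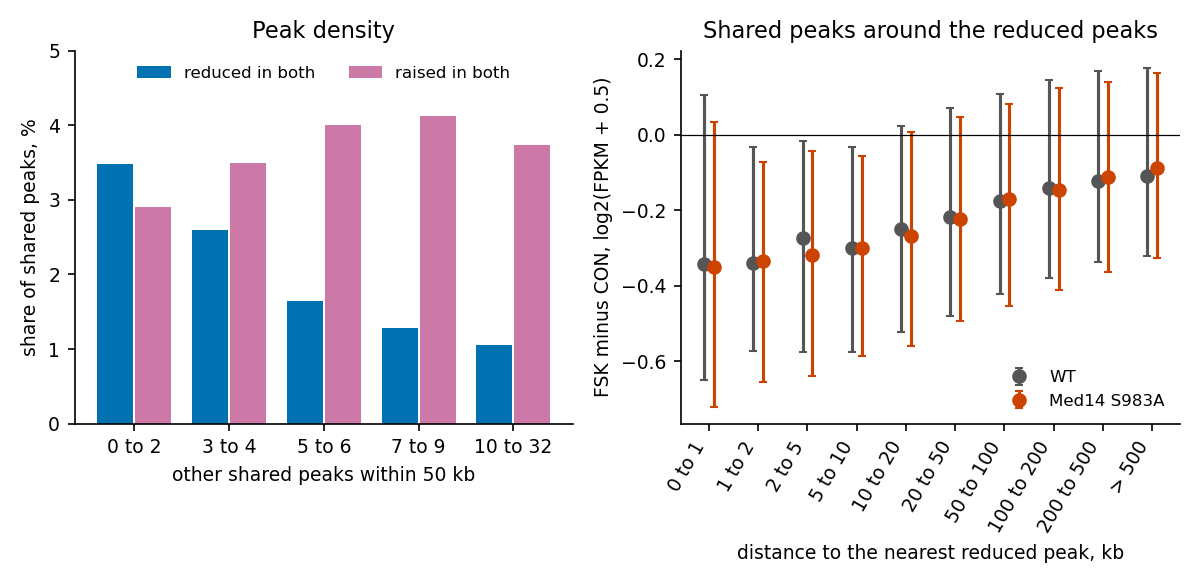
Left, share of shared peaks (%) that were reduced in both genotypes (blue) or raised in both (pink), by the number of other shared peaks within 50 kb. Right, median FSK change in log2(FPKM + 0.5) of shared peaks that were not members, by distance in kb to the nearest reduced peak, with bars from the lower to the upper quartile of peaks. The blue bars fall from 3.48% to 1.06%, and the medians on the right climb from -0.34 and -0.35 to -0.11 and -0.09.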

How the data were processed

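ATAC-seq of 6 INS-1 libraries, 1 per condition, was analysed from 1 table of merged peaks. By the study's methods and the submitters' processing notes, the authors used Trim Galore for trimming, BWA for alignment to rn6, SAMtools to remove mitochondrial, poorly mapped and duplicate reads, and MACS2 for peaks. The deposited FPKM of the authors are relative to the reads in each library's own peaks. In 99.7% of merged peaks the number of values above 0 equals the number of peak lists that hold it, so 0 marks a peak that was not called. Reads outside a library's own peak thus appear to be left out, while the length is that of the merged peak. The FSK libraries had more called peaks than CON, 169592 against 131378 in WT and 144295 against 119142 in the mutant. Whether this, the scaling or narrower peak calls lowered the FSK values was not tested. After peak calling, the study shifted fragments and sorted them by nucleosome span. The sources used here do not say whether the FPKM were made from shifted reads.

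Differences were taken as log2(FPKM + 0.5), with the authors' scaling kept, over peaks called in all 6 libraries with a mean of at least 1 FPKM, and 3 mitochondrial peaks were left out. Fold changes of low peaks are understated by the pseudocount. Reads per peak were recovered from the steps between low values of FPKM times length (100.0% of the 4000 lowest values per library within 0.15 of a whole number). Each step was counted as 1 read, and whether it is a read or a read end is not stated. Intervals are exact Poisson intervals at 95% on these counts. Python 3.11.15, numpy 2.4.6, pandas 2.3.3 and scipy 1.17.1 were used. The selection was run on simulated reads with planted 4-fold falls and counting error only. That run does not cover falls near the limit or variation between libraries. With 1 library per condition no p-value was computed. The members and lists were chosen with earlier results of these data known. Named regions are the 10 members with the lowest mean FSK change, the 10 with the highest mean CON level, 3 on each side of the limit, the 3 highest and 3 lowest for the genotype difference with Ex-4 and for the mean Ex-4 change, the 3 widest members and the 3 stretches with the most members, ties broken by the lower median WT change.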

Additional observations from a re-analysis of the deposited data

Results flagged for a closer look

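Among the named regions, the Ex-4 change had opposite signs in the genotypes at chr3:172090953-172091749, with 0.01 in WT and -0.28 in Med14 S983A on the log2(FPKM + 0.5) scale. The WT levels of 8.70 FPKM in CON and 8.76 with Ex-4 lie within each other's counting intervals, and the difference between genotypes was not tested. With 1 library per condition, no condition could be searched for a sample far from the others.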

How the results depend on the processing

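With 1 library per condition, no replicate could be left out and the spread between libraries is unknown. Planned shares at promoters and with motifs were not run, since no rn6 annotation or genome was at hand. Of 51 alternatives, 20 stayed within 1.5 times a count or within the 95% interval over peaks of a share or median, 31 did not, and no median changed sign. These intervals take peaks as units and do not cover variation between libraries, so they serve only to sort the alternatives. The cause of each shift was not tested, other than that a stricter limit keeps fewer peaks.

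The count of 1776 members became 7924 at 1.5-fold, 12 at 4-fold and 5130 over peaks called or not. It lay between 1187 and 2504 under the other settings, with 1260 after centring each library and 1208 after quantile normalization. The median FSK change of all shared peaks was -0.135 in WT and -0.124 in Med14 S983A. After centring it was -0.079 and -0.016, and after quantile normalization -0.079 and -0.044. The share of WT-reduced peaks that were also reduced in Med14 S983A (56.2%) was 59.3% with a pseudocount of 0.1, 52.7% with 1, 60.5% at a mean of 3 FPKM, 48.7% after centring each library, 44.4% after quantile normalization, 69.2% at 1.5-fold and 23.5% at 4-fold. The reverse share (48.0%) was 50.6% at a mean of 3 FPKM, 52.4% after quantile normalization, 62.4% at 1.5-fold and 19.0% at 4-fold. After quantile normalization, and by a little after centring, the order of the 2 shares turned, as did that of the peaks reduced in WT (3158, then 2723 and 2585) and in the mutant (3703, then 2306 and 2569).

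At 4-fold the members' median Ex-4 change became -0.41 for WT and -0.62 for the mutant, and it was -0.27 and -0.32 after quantile normalization, and -0.31 in the mutant after centring. For peaks chosen on FSK in WT, the median mutant Ex-4 change was -0.24 with a pseudocount of 1, -0.24 after centring, -0.25 after quantile normalization and -0.51 at 4-fold. For peaks chosen in the mutant, the WT value was -0.19 after quantile normalization and -0.28 at 4-fold. The genotype difference of members with Ex-4 was -0.28 after centring, -0.77 at 4-fold and -0.44 with each chromosome centred, an alternative chosen after seeing the data. Another member lay within 2 kb of 2.7% of members, within 50 kb of 19.1%, and within 10 kb of 0.0% at 4-fold.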

Other observations

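Without the demand that a peak be called in all 6 libraries, 5130 of 146906 peaks that averaged 1 FPKM or more fell at least 2-fold with FSK in both genotypes. Of these, 3354 were missing from 1 or more peak lists, and 1721 were listed at 0 in both FSK libraries, where no level is known and no fold can be given.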
